A study of Mus musculus with 17 samples.

Results

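A set of 9 genes of astrocyte ion, water and gap junction handling was followed in cultured mouse astrocytes: Kcnj10, Kcnj16, Aqp4, Atp1b2, Gja1, Gjb6, Slc4a4, Slc12a2 and Hepacam. They were chosen by symbol, and all 9 were found among the 56691 gene rows of the count table. Astrocytes were immunopanned from the whole brain of C57BL/6 mice at postnatal day 2 without olfactory bulbs and cerebellum, by depletion on CD45 and O4 dishes and capture on a HepaCAM-coated dish, so the product of Hepacam, which is among the 9 genes, was itself the antigen of selection. All cultures were kept in serum-free medium with heparin-binding EGF-like growth factor. SAG, a small-molecule agonist of the Sonic hedgehog receptor component Smoothened, was given at 500 ng/ml in DMSO from day 3 in vitro for 3 days to 3 samples, and DMSO alone to 3 samples. FGF2 (4 samples) or FGF10 (3 samples), each at 50 ng/ml in PBS, or PBS alone (4 samples), was given from day 2 for 7 days. The methods count 3 FGF2 replicates, whereas the labels give 4, and all 4 were used. The study asked whether these ligands change astrocyte gene expression. Cells came from pups and were grown as purified cultures, which limits them as a model of mature astrocytes in tissue.

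Astrocytes clear potassium released by active neurons. Kcnj10 encodes Kir4.1, the main inwardly rectifying potassium channel of astrocytes, and Kcnj16 encodes Kir5.1, which joins Kir4.1 in mixed channels. Aqp4 encodes the water channel of astrocyte endfeet on vessels, and Atp1b2 encodes the beta subunit of the sodium-potassium pump that is typical of glia. Gja1 and Gjb6 encode connexins 43 and 30, the gap junction proteins that couple astrocytes. Slc4a4 encodes the sodium-bicarbonate cotransporter NBCe1, and Slc12a2 encodes the sodium-potassium-chloride cotransporter NKCC1. Hepacam encodes the adhesion protein GlialCAM, which holds chloride channel ClC-2, MLC1 and connexin 43 at astrocyte contacts. Kcnj10, Aqp4, Gja1, Gjb6 and Slc4a4 are known to become more abundant as astrocytes mature.

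Libraries were made from transcript 3′ ends and held 17481727 to 68342287 counts. Levels are given as CPM, the counts of a gene relative to the total of its library after TMM scaling over all 17 libraries, and are not compared between genes. All 11 astrocyte markers of the list used were detected, but not all of them in every library. Their summed levels were 4244 to 6391 CPM. S100b had counts in 15 libraries (0 to 22.4 CPM over all libraries) and Slc7a10 in 9 (0 to 16.4 CPM). The 9 microglia and macrophage markers summed to at most 4.36 CPM, with Csf1r, C1qb and Aif1 at 0 in every library, and the 7 endothelial and mural markers summed to 0 to 74.7 CPM, with Cldn5 and Cdh5 at 0 in every library, Kdr at up to 14.5 CPM in 13 libraries and Pdgfrb at up to 64.9 CPM in 12. Oligodendrocyte lineage markers summed to 316 to 902 CPM, neuronal markers to 24.2 to 203 CPM, ependymal markers to 83.1 to 620.3 CPM, choroid plexus markers to 36.5 to 83.5 CPM and fibroblast markers to at most 19.5 CPM. In such bulk RNA, fewer cells of a type and less RNA per cell cannot be told apart. In the FGF experiment, replicates 1 and 2 stood apart from replicates 3 and 4 in each group, although no label names a batch. Summed cell cycle markers were 96.7 to 287 CPM in the 6 libraries of replicates 1 and 2 and 870.2 to 1300 CPM in the 5 libraries of replicates 3 and 4. Values of the 9 genes are therefore also given by replicate number.

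The promoters of Kcnj10, Gja1 and Gjb6 are shown because these 3 genes differed most in kind: a channel gene read in every library, a connexin gene whose level varied widely, and a connexin gene that was hardly read. The 250 bases before each RefSeq transcription start are given 5′ to 3′ on the gene's strand (GRCm38.p6), in lower case with motif matches in capitals. Kcnj10 is at chr1:172340960-172341209 on the plus strand, Gja1 at chr10:56377050-56377299 on the plus strand and Gjb6 at chr14:57133612-57133861 on the minus strand. In GENCODE M21 the genes themselves span chr1:172341210-172374085, chr10:56377330-56402513 and chr14:57123303-57133611, so the windows are upstream of the first exon.
Kcnj10: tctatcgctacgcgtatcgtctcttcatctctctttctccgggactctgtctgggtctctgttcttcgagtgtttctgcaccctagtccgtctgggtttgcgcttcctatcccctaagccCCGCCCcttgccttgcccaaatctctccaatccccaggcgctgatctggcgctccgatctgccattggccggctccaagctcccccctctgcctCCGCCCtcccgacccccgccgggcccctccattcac
Gja1: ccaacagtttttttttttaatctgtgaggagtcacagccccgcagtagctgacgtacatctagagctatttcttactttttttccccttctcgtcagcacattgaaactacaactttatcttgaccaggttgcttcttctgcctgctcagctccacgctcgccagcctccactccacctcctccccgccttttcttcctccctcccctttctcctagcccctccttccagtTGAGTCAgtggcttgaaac
Gjb6: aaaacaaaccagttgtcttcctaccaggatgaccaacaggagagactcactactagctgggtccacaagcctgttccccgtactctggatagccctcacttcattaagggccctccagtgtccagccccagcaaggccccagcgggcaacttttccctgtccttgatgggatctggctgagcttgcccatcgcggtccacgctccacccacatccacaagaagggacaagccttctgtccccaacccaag

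A set of 5 motifs was searched on either strand, chosen for factors that act downstream of hedgehog or FGF signals and for core promoters. None overlapped another in the printed windows. For AP-1, with the letters TGANTCA, Gja1 held a match (TGAGTCA) at -19 to -13 from the start, and 6.75% of all 32851 RefSeq promoter windows of this length held one. For the GC box, GGGCGG as read on the plus strand of the motif, Kcnj10 held a pair of matches on the opposite strand, at -130 to -125 and at -36 to -31, and 32.74% of all windows held the box in either orientation. Gjb6 held none of the 5. The GLI motif was searched as GACCACCCA, which 0.23% of all windows held. Letters for ETS factors, CCGGAA, were in 12.03% of all windows. The TATA box, TATAAA here, was in 12.37% of them. A match describes letters only.

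Of the 9 genes, 8 had counts in all 17 libraries, and these 8 passed the low-count filter in every comparison. Gjb6 was the exception: it had 171 counts (5.46 CPM) in SAG replicate 3 and 0 counts in the other 16 libraries. A count of 0 allowed up to 3 counts, or 0.0447 to 0.172 CPM in those libraries, by counting error alone. That limit leaves out the spread between samples, which was wide within SAG (171 counts against 0). Connexin 30 RNA was not detected at this depth outside 1 library, and no fold change is given for it. Among the 8 genes read everywhere, the span from the lowest to the highest library was 1.99-fold for Atp1b2, 2.45-fold for Slc4a4, 2.81-fold for Hepacam, 3.19-fold for Kcnj10, 4.99-fold for Aqp4, 7.86-fold for Gja1, 13.2-fold for Slc12a2 and 111-fold for Kcnj16. The wide span of Kcnj16 came from DMSO replicate 1, which had 33 counts (0.677 CPM), where the next lowest library, FGF10 replicate 3, had 421 counts (10.99 CPM). Kcnj10 was not low in DMSO replicate 1, so that the ratio of Kcnj10 to Kcnj16 counts was 131 there and 1.403 to 7.18 in the other libraries.

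**Figure D1:**
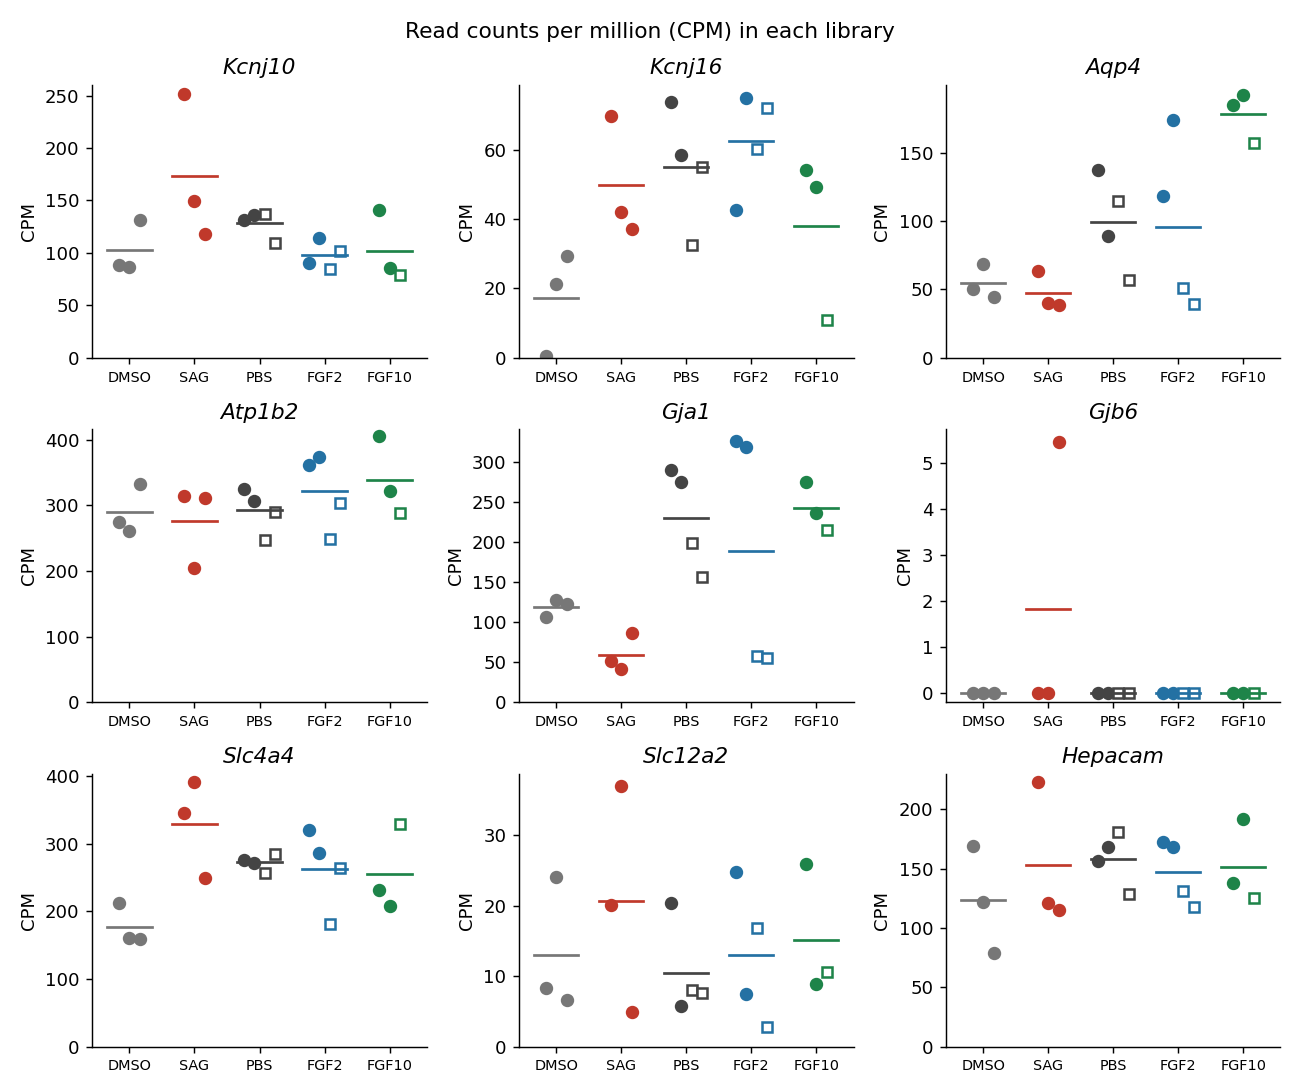
Level of each of the 9 genes in CPM (vertical axes, linear, from 0, or from just below 0 for Gjb6) in each library of the 5 groups (horizontal axes). Points are libraries, bars are group means, and open squares mark replicates 3 and 4 of the FGF experiment. Gja1 lies at 41.6 to 86.1 CPM under SAG and at 107 to 128 CPM under DMSO, and Gjb6 is above 0 in 1 library.

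Ordered by group mean, neighbouring groups overlapped for nearly every gene. Of the 8 genes, only Aqp4 and Gja1 had neighbours in that order without overlap. The order was made from the same values, and the share of all genes with such neighbours was not counted, so this is description only. Mean Aqp4 was 178 CPM in FGF10, 99.3 in PBS, 95.6 in FGF2, 54.4 in DMSO and 47.6 in SAG, and FGF10 did not overlap PBS. Mean Gja1 was 243 CPM in FGF10, 230.5 in PBS, 189.8 in FGF2, 119 in DMSO and 59.7 in SAG, and DMSO did not overlap SAG. Kcnj10 ran from SAG (173) over PBS, DMSO and FGF10 to FGF2 (97.9), Kcnj16 from FGF2 (62.5) over PBS, SAG and FGF10 to DMSO (17.2), and Slc4a4 from SAG (329) over PBS, FGF2 and FGF10 to DMSO (178). The orders of Atp1b2, Slc12a2 and Hepacam had overlap between all neighbours.

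Under SAG, Slc4a4 was higher and Gja1 lower than under DMSO in every library, but neither passed the test over all genes. Of 12538 genes tested with edgeR's quasi-likelihood test, 8 (0.0638%) had an adjusted p under 0.05, 4 of them (0.0319%) under 0.01 with an absolute log2 fold change above 1. None of the 8 tested genes of the set was among these 8 (0 of 8). Of the 8 tested genes of the set, 3 had an unadjusted p under 0.05, as did 5.69% of all genes, and DESeq2's Wald test called 1 of them, Slc4a4, among 398 genes (3.01%). With 3 samples against 3, an exact permutation test cannot go below p = 0.1. The groups did not overlap for 3 of the 8 genes, Slc4a4, Kcnj16 and Gja1, against 14.2% of all genes tested.

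Slc4a4 was at 213, 160.0 and 159.6 CPM in DMSO replicates 1 to 3 and at 346, 391 and 249 CPM in SAG replicates 1 to 3. All SAG samples lay above all DMSO samples. The log2 fold change was 0.91 (SE 0.23, n = 3 and 3, 95% interval 0.41 to 1.41, unadjusted p = 0.0021 and adjusted p = 0.405 by edgeR, exact permutation p = 0.1, higher in 3 of 3 samples). DESeq2's adjusted p was 0.000981, so the call for this bicarbonate cotransporter gene depended on the tool. Leaving out each library in turn gave 0.77 to 1.07.

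Gja1 was at 107, 128 and 123 CPM in DMSO and at 51.3, 41.6 and 86.1 CPM in SAG. The log2 fold change was -0.97 (SE 0.33, n = 3 and 3, 95% interval -1.69 to -0.25, unadjusted p = 0.0128 and adjusted p = 0.592 by edgeR, exact permutation p = 0.1, lower in 3 of 3 samples). Adjusted p was 0.0802 by DESeq2, and values without each library in turn were -1.35 to -0.76. The other connexin gene of the pair, Gjb6, had its only counts in SAG replicate 3, the SAG library in which Gja1 was highest.

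The Kir genes were higher on average. Kcnj10 was at 89.0, 86.8 and 132 CPM in DMSO and at 252, 149 and 118 CPM in SAG. SAG replicate 3 lay below DMSO replicate 3, so the groups overlapped. The log2 fold change of Kcnj10 was 0.78 (SE 0.31, n = 3 and 3, 95% interval 0.091 to 1.46, adjusted p = 0.748 by edgeR), and without SAG replicate 1 it was 0.41. Kcnj16 was at 0.677, 21.4 and 29.5 CPM in DMSO and at 69.8, 42.1 and 37.3 CPM in SAG, without overlap. Its log2 fold change of 1.55 (SE 0.96, 95% interval -0.54 to 3.65, adjusted p = 1.00 by edgeR) was 0.99 without DMSO replicate 1, the library with 33 counts.

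For the remaining genes the differences were within the spread between samples. Aqp4 was at 50.1, 68.6 and 44.5 CPM in DMSO and at 63.8, 40.4 and 38.5 CPM in SAG, a log2 fold change of -0.17 (95% interval -1.06 to 0.71). Atp1b2 was at 275, 260.4 and 332 CPM in DMSO and at 315, 204 and 311 CPM in SAG, a log2 fold change of -0.040 with the narrowest interval of the 8 genes (-0.53 to 0.45). For this pump subunit gene, the interval lies within 1 log2 unit of 0, where 1 unit is a 2-fold difference. Hepacam was at 169, 122 and 79.0 CPM in DMSO and at 222, 121 and 115 CPM in SAG. Its log2 fold change was 0.33 (95% interval -0.42 to 1.07), and -0.042 without SAG replicate 1. Slc12a2 was at 8.35, 24.1 and 6.58 CPM in DMSO and at 20.02, 36.9 and 4.98 CPM in SAG, a log2 fold change of 0.68 (95% interval -1.62 to 2.99) that was -0.036 without SAG replicate 2. Ependymal, astrocyte and endothelial and mural marker sums did not overlap between SAG and DMSO, while neuronal, oligodendrocyte lineage and cell cycle sums did. Summed ependymal markers were 108 to 148 CPM in SAG and 237 to 293 CPM in DMSO, summed endothelial and mural markers 7.64 to 18.1 and 23.5 to 28.3 CPM, summed neuronal markers 24.2 to 75.5 and 53.2 to 199 CPM, summed oligodendrocyte lineage markers 466 to 578 and 482 to 645 CPM, summed cell cycle markers 182 to 357 and 131 to 219.7 CPM, and summed astrocyte markers 4796 to 5384 and 5625 to 5994 CPM. Gfap, an intermediate filament gene of reactive and white matter astrocytes, was at 25.1 to 60.2 CPM in SAG and 139 to 199 CPM in DMSO (log2 fold change -2.08, SE 0.35, adjusted p = 0.0854 by edgeR). It was the lowest of the 11 astrocyte markers, of which 6 were higher and 5 lower by fold change (median 0.15). Aldh1l1, an astrocyte folate enzyme gene named after its values were seen, was higher in SAG without overlap, at 199.7 to 354 CPM in SAG and 152 to 173 CPM in DMSO (log2 fold change 0.80, SE 0.24, adjusted p = 0.484 by edgeR). Of the 11 markers, 1 was higher and 3 were lower in SAG without overlap, against 14.2% of all genes in either direction. Besides Gfap, the lower ones were Sox9 and Glul, also named after their values were seen. Sox9 was at 781 to 1083 CPM in SAG and 1265 to 1395 CPM in DMSO, and Glul at 984 to 1270 and 1497 to 1643 CPM. The part of these differences in the values of the 9 genes was not tested.

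**Figure D2:**
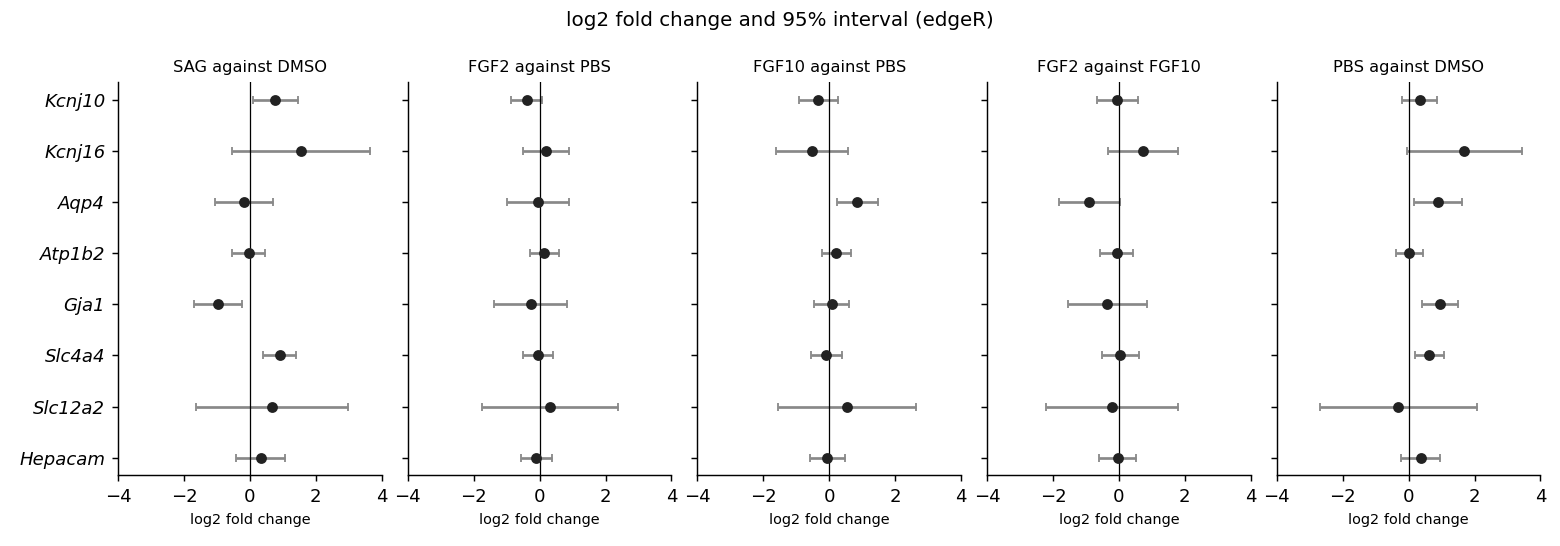
log2 fold change (horizontal axes, points) with its 95% interval (bars) from edgeR for the 8 tested genes (vertical axis) in the 5 comparisons (panels). Intervals that leave out 0 are those of Kcnj10, Gja1 and Slc4a4 for SAG against DMSO, Aqp4 for FGF10 against PBS, and Aqp4, Gja1 and Slc4a4 for PBS against DMSO, and no adjusted p was under 0.05.

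Between FGF2 and PBS, with 4 samples each, the differences of all 8 genes were within the spread between samples. edgeR called 0 of 12744 genes (0%) and 0 of the 8, with 223 genes (1.75%) and 0 of the 8 at an unadjusted p under 0.05, while DESeq2 called 120 genes (0.805%) and 0 of the 8. No gene of the 8 separated the groups, against 2.45% of all genes. The smallest p that an exact permutation test can give here is 0.0286.

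Kcnj10 had the lowest fold change. It was at 131, 136, 138 and 109 CPM in PBS replicates 1 to 4 whereas FGF2 samples 1 to 4 had 90.0, 115, 84.6 and 102 CPM. Only FGF2 replicate 2 exceeded the lowest PBS sample. The log2 fold change was -0.38 (SE 0.22, n = 4 and 4, 95% interval -0.85 to 0.085, adjusted p = 1.00 by edgeR, exact permutation p = 0.0571). Kcnj16 was at 73.6, 58.4, 32.6 and 54.9 CPM in PBS and at 42.6, 74.9, 60.3 and 72.1 CPM in FGF2, a log2 fold change of 0.20 (95% interval -0.51 to 0.90).

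Gja1 and Aqp4 spread more widely over FGF2 than over PBS samples, with an SD of 154 against 63.4 CPM for Gja1 and of 62.6 against 34.6 CPM for Aqp4 (n = 4 each). Gja1 was at 290.45, 276, 199.8 and 156 CPM in PBS and at 327, 319, 58.1 and 55.3 CPM in FGF2. FGF2 replicates 1 and 2 were thus above every PBS sample and replicates 3 and 4 below every one. The pooled log2 fold change was -0.27 (SE 0.51, 95% interval -1.38 to 0.83). It covered 0.20 (SE 0.19) within replicates 1 and 2 and -1.65 (SE 0.28) within replicates 3 and 4. For the latter, unadjusted p was 0.000476 and adjusted p 0.924 by edgeR. With the replicate set as a term the log2 fold change of Gja1 was -0.60 (SE 0.31), and with the replicate number as a block -0.71 (SE 0.33). Aqp4 was at 137, 89.1, 114 and 56.6 CPM in PBS and at 118, 174, 50.9 and 39.6 CPM in FGF2. Its pooled log2 fold change was -0.049 (95% interval -0.98 to 0.88), 0.38 (SE 0.33) within replicates 1 and 2 and -0.91 (SE 0.44) within replicates 3 and 4. The biological coefficient of variation that edgeR fitted for Gja1 in this comparison was 51.5%, where the median of the 500 genes nearest in level was 29.2%.

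Atp1b2, Slc4a4 and Hepacam varied less. Atp1b2 was at 325, 307, 247 and 290.3 CPM in PBS and at 361, 373, 249 and 304 CPM in FGF2, a log2 fold change of 0.15 (95% interval -0.29 to 0.58). Slc4a4 was at 276, 271, 257 and 285 CPM in PBS and at 319.9, 287, 181 and 264 CPM in FGF2, a log2 fold change of -0.043 (95% interval -0.50 to 0.41). Hepacam was at 156, 168, 180.4 and 128 CPM in PBS and at 172, 168, 131 and 117 CPM in FGF2, a log2 fold change of -0.097 (95% interval -0.57 to 0.37). For these 3 genes, and for the pooled values of Kcnj10, Kcnj16 and Aqp4 above, the intervals lie within 1 log2 unit of 0. Slc12a2 was at 20.3, 5.76, 8.08 and 7.60 CPM in PBS and at 24.8, 7.45, 16.8 and 2.79 CPM in FGF2, and its interval was -1.74 to 2.38.

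FGF10 was compared with the same PBS samples as FGF2. Aqp4 was higher in every FGF10 sample than in every PBS sample, while the other 7 tested genes overlapped. edgeR called 0 of 13309 genes (0%) and 0 of the 8, with 305 genes (2.29%) and 1 of the 8 at an unadjusted p under 0.05, and DESeq2 called 104 genes (0.666%) and 0 of the 8. Groups did not overlap for 4.79% of all genes tested. Aqp4 was at 185, 192 and 157 CPM in FGF10 replicates 1 to 3, against 56.6 to 137 CPM in PBS. The log2 fold change of this water channel gene was 0.85 (SE 0.29, n = 3 and 4, 95% interval 0.23 to 1.47, unadjusted p = 0.0114 and adjusted p = 1.00 by edgeR, higher in 3 of 3 samples). The exact permutation p was 0.0571, the smallest that 3 against 4 samples can give. Replicates 1 and 2 alone gave 0.73 (SE 0.29), with the replicate set as a term it was 0.73 (SE 0.31), and without each library in turn it was 0.65 to 1.03. Replicates 3 and 4 hold only 1 FGF10 library, so no value is given within them. An antisense gene, AC133525.2, overlaps Aqp4 on the other strand, and the strand setting of the counting was not stated.

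Kcnj10 was at 141, 85.7 and 78.9 CPM in FGF10, a log2 fold change of -0.33 (95% interval -0.91 to 0.25) against PBS. Kcnj16 was at 54.2, 49.2 and 10.99 CPM, a log2 fold change of -0.52 (95% interval -1.62 to 0.58) that was -0.088 without FGF10 replicate 3. Gja1 was at 275, 237 and 216 CPM, a log2 fold change of 0.083 (95% interval -0.45 to 0.61). The only FGF10 library of the second replicate set, replicate 3 at 216 CPM, was the lowest of its group in Gja1. It lay above replicates 3 and 4 of PBS (199.8 and 156 CPM) and of FGF2 (58.1 and 55.3 CPM). Atp1b2 was at 405, 322 and 288 CPM (log2 fold change 0.22, 95% interval -0.23 to 0.66), Slc4a4 at 231, 207 and 328 CPM (-0.084, -0.55 to 0.39), Hepacam at 138, 192 and 126 CPM (-0.054, -0.57 to 0.47) and Slc12a2 at 25.8, 8.85 and 10.6 CPM (0.54, -1.56 to 2.64). Intervals of Kcnj10, Gja1, Atp1b2, Slc4a4 and Hepacam lie within 1 log2 unit of 0.

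Set directly against each other, FGF2 and FGF10 differed in 0 of 13493 genes (0%) by edgeR and in 0 of the 8, with 324 genes (2.4%) and 0 of the 8 at an unadjusted p under 0.05. DESeq2 called 90 genes (0.543%) and 0 of the 8, and the groups overlapped for all 8, where 4.9% of all genes did not overlap. Aqp4 had the lowest value, a log2 fold change of -0.89 for FGF2 against FGF10 (SE 0.43, n = 4 and 3, 95% interval -1.82 to 0.039, adjusted p = 1.00 by edgeR). FGF2 replicate 2, at 174 CPM, lay within the FGF10 range. The value was -0.36 (SE 0.27) within replicates 1 and 2, and -0.95 (SE 0.31, adjusted p = 1.00 by edgeR) with the replicate set as a term. Kcnj16 was at 0.72 (SE 0.49, 95% interval -0.34 to 1.78), and at 0.28 without FGF10 replicate 3. Gja1 was at -0.35 (SE 0.55) overall and at 0.34 (SE 0.20) within replicates 1 and 2. Slc4a4 was at 0.046 (SE 0.26) overall and at 0.47 (SE 0.20, adjusted p = 1.00 by edgeR) within replicates 1 and 2, and at 0.045 (SE 0.21) with the replicate set as a term. The other 4 genes lay between -0.21 and -0.038.

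By replicate number, Gja1 and Atp1b2 did not overlap between the sets of the FGF experiment. The share of all genes without overlap between these sets was not counted, so the separation is not read as particular to these genes. Gja1 was at 237 to 327 CPM (median 283) in the 6 libraries of replicates 1 and 2 and at 55.3 to 216 CPM (median 156) in the 5 libraries of replicates 3 and 4. Atp1b2 was at 307 to 405 CPM (median 343) and at 247 to 304 CPM (median 288). The ranges of Kcnj10, Kcnj16, Aqp4, Slc4a4, Slc12a2 and Hepacam overlapped, with Aqp4 at a median of 155 CPM and of 56.6 CPM. Marker sums moved with these sets: replicates 1 and 2 had 353 to 620.3 CPM of ependymal, 113 to 203 CPM of neuronal and 5594 to 6391 CPM of astrocyte markers, and replicates 3 and 4 had 83.1 to 216 CPM, 30.9 to 58.4 CPM and 4244 to 4576 CPM. Endothelial and mural markers were at 18.2 to 74.7 CPM and at 0 to 17.99 CPM, without overlap. Oligodendrocyte lineage markers were at 739.7 to 902 CPM and at 316 to 747 CPM. The part of these differences in Gja1 and Atp1b2 was not tested, and no label separates a batch from the replicate number.

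**Figure D3:**
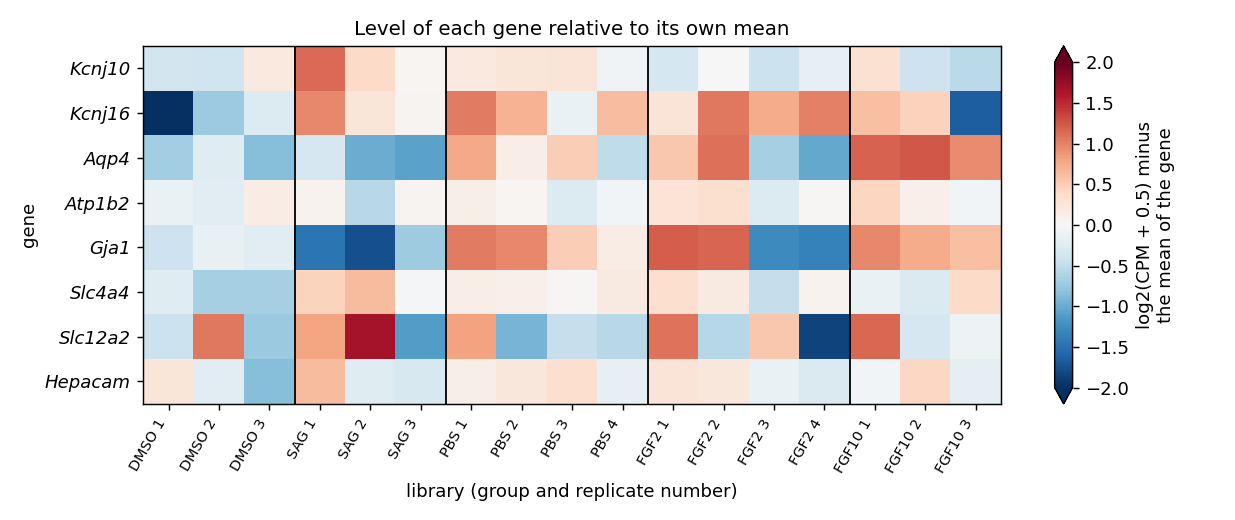
Level of each of the 8 genes read in every library (vertical axis) relative to its own mean, as log2(CPM + 0.5) minus that mean (colour scale, clipped at -2 and 2), in the 17 libraries (horizontal axis, vertical lines between groups). Kcnj16 is lowest in DMSO replicate 1 (0.677 CPM), and Gja1 is low in the SAG samples and in FGF2 replicates 3 and 4 (58.1 and 55.3 CPM).

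The vehicle groups were also compared. PBS and DMSO cultures differed in vehicle, in the day of addition, in the length of treatment and in the experiment, and these cannot be told apart. Both groups also serve as controls above, so the values here are not independent of the earlier ones. edgeR called 0 of 13271 genes (0%), with 580 genes (4.37%) and 3 of the 8 at an unadjusted p under 0.05, and DESeq2 called 193 genes (1.3%), including Gja1 and Slc4a4. The groups did not overlap for Kcnj16, Gja1 and Slc4a4, each higher in PBS, against 6.44% of all genes in either direction. Gja1 was at 156 to 290.45 CPM in PBS and at 107 to 128 CPM in DMSO, a log2 fold change of 0.96 (SE 0.25, n = 4 and 3, 95% interval 0.42 to 1.51, adjusted p = 0.978 by edgeR and 0.00732 by DESeq2). Slc4a4 was at 257 to 285 CPM and at 159.6 to 213 CPM, a log2 fold change of 0.63 (SE 0.21, 95% interval 0.19 to 1.07, adjusted p = 1.00 by edgeR and 0.0428 by DESeq2). Kcnj16 had a log2 fold change of 1.68 (SE 0.81), and 1.12 without DMSO replicate 1. Aqp4 had one of 0.88 (SE 0.34, adjusted p = 1.00 by edgeR), with PBS replicate 4 inside the DMSO range. Kcnj10 was at 0.34 (SE 0.25), Hepacam at 0.37 (SE 0.27), Atp1b2 at 0.028 (SE 0.20) and Slc12a2 at -0.31 (SE 1.11). Summed oligodendrocyte lineage markers were 652 to 795 CPM in PBS and 482 to 645 CPM in DMSO, without overlap, with 7 of 8 tested genes higher by fold change. Summed cell cycle markers were 96.7 to 974 CPM and 131 to 219.7 CPM, with 5 of 5 higher by fold change. For each of these 5 genes, PBS replicates 3 and 4 exceeded every DMSO sample and PBS replicates 1 and 2 did not exceed the highest. Top2a, for example, was at 53.9, 129, 594 and 592 CPM in PBS replicates 1 to 4 and at 141, 78.6 and 54.5 CPM in DMSO. The cell cycle difference thus went with the replicate sets. The part of these marker differences in the values of the 8 genes was not tested.

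Genes of the same pathways were read from gene lists, and none passed the test in any of the 5 comparisons. Medians and counts are given over the genes tested, and the lowest and highest genes named are those with a mean of at least 10 CPM. The medians stand beside a median over all genes of -0.020 for SAG against DMSO, 0.0011 for FGF2 against PBS and -0.0016 for FGF10 against PBS. The median of the 8 genes was 0.50 under SAG, with 5 higher and 3 lower, -0.046 under FGF2 and 0.015 under FGF10. Among 11 of 17 other potassium channel genes tested under SAG, 9 were higher and 2 lower by fold change, with a median of 0.31. Kcnk2, which encodes the tandem-pore channel TREK-1, had the lowest value (-0.77, SE 0.24, adjusted p = 0.512 by edgeR), and Kcnn3, a calcium-activated channel gene, the highest (1.34, SE 1.57). Kcnk2 was at 286, 395 and 361 CPM in DMSO and at 267, 168 and 165 CPM in SAG, without overlap. Under FGF2 the median of 12 such genes was -0.22, from Kcnn3 at -0.999 (SE 0.78) to Kcna6 at 0.61 (SE 0.87), and under FGF10 that of 11 was 0.16, from Kcnma1 at -1.51 (SE 1.20) to Kcna6 at 1.04 (SE 0.91).

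Of 9 other sodium-potassium pump genes, 6 were tested under SAG, with 2 higher and 4 lower and a median of -0.16. Fxyd6, a regulatory subunit gene, was lowest (-0.72, SE 0.22, adjusted p = 0.521 by edgeR), at 301 to 428 CPM in DMSO and 172 to 266 CPM in SAG, and Atp1b3, another beta subunit gene, was highest (0.34, SE 0.70). Under FGF2 the median of 7 genes was 0.039, and -0.021 over the 6 with a mean of at least 10 CPM. The lowest and highest were Fxyd1 (-0.38, SE 0.86) and Atp1b3 (0.30, SE 0.54). Under FGF10 the median of 7 genes was 0.17, and 0.30 over the 6 with a mean of at least 10 CPM. Of 13 other connexin, pannexin and junction genes, 6 were tested under SAG (2 higher, 4 lower, median -0.39). Over the 5 with a mean of at least 10 CPM the median was -0.022, from Gjc1 (-1.46, SE 1.37) to Gjc3 (0.33, SE 1.11). Gjb2, the connexin 26 gene, had counts in 3 libraries only, at 5.29 CPM in SAG replicate 2, 3.18 CPM in PBS replicate 2 and 1.07 CPM in FGF10 replicate 2. Panx1, a pannexin gene, had the highest value under FGF2 (2.31, SE 1.35) and under FGF10 (2.53, SE 1.46), from 0.0615 to 7.56 CPM in PBS. Medians of the 7 such genes tested were -0.42 under FGF2 and -0.31 under FGF10. Over the 5 with a mean of at least 10 CPM they were -0.42 and -0.035. Gjc3 was lowest under FGF2 (-0.98, SE 0.74) and Tjp1, a tight junction scaffold gene, under FGF10 (-0.86, SE 0.43).

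Of 20 other bicarbonate, chloride cotransport and volume genes, 18 were tested under SAG (7 higher, 11 lower, median -0.18). Slc4a3, an anion exchanger gene, was at 93.6, 58.2 and 21.9 CPM in DMSO and at 16.9, 6.23 and 0.192 CPM in SAG (-2.89, SE 1.13, adjusted p = 0.720 by edgeR), without overlap. Slc12a4, the potassium-chloride cotransporter gene KCC1, had the highest value under SAG (0.94, SE 1.19) and the lowest under FGF2 (-1.56, SE 1.02) and FGF10 (-1.28, SE 1.03). FGF2 and FGF10 were set against the same PBS samples. Medians of these cotransport and volume genes were 0.056 over 18 genes under FGF2 and 0.099 over 19 genes under FGF10. Of 14 endfoot anchoring and HepaCAM partner genes, 11 were tested under SAG (6 higher, 5 lower, median 0.0078), with Agrn highest (0.19, SE 0.29). Under FGF2 the ends were Utrn, a dystrophin homologue (-0.64, SE 0.33), and Agrn (0.28, SE 0.26), and under FGF10 again Utrn (-0.77, SE 0.26) and Agrn (0.23, SE 0.24). Medians of this list were -0.025 under FGF2 and -0.083 under FGF10, over 12 genes each.

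**Figure D4:**
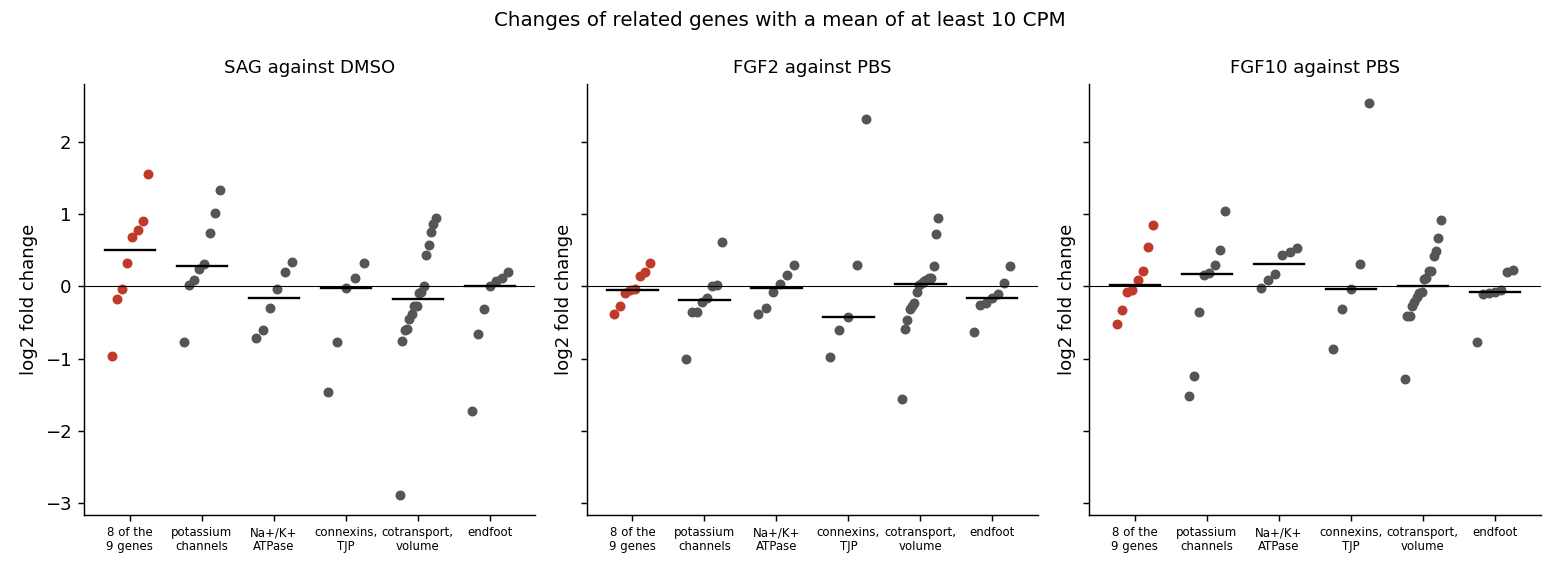
log2 fold change from edgeR (vertical axes) of the 8 tested genes (red points) and of the genes in 5 related lists (dark points) with a mean of at least 10 CPM, by list (horizontal axes), for SAG, FGF2 and FGF10 against their vehicles (panels). Bars are medians over the plotted genes; under SAG they run from -0.18 for cotransport and volume genes to 0.50 for the 8 genes, and no plotted gene had an adjusted p under 0.05.

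For each of the 8 genes, the genes most alike in pattern over the 17 libraries were sought among 9069 others with a mean of at least 10 CPM, by the root mean square difference of mean-centred log2 CPM. Atp1b2 was closest to Gpm6b (0.17) and Srrm1 (0.18), Hepacam to Llgl1 (0.25) and Fermt2 (0.26), Slc4a4 to Abhd12 (0.25) and Gnai2 (0.28), and Kcnj10 to Bcl7a (0.28) and Snrnp70 (0.30). Aqp4 was closest to Rnf24 (0.41) and S1pr1 (0.48), and Gja1 had Bcas1 (0.49) among its closest 2. Kcnj16 was closest to Spice1 (0.59) and Samhd1 (0.70), and Slc12a2 to Tulp4 (0.60) and Fbxo28 (0.62). These distances are descriptions over libraries that share groups and depth. They are smallest for genes that varied least, since the SD of the gene's own log2 level was 0.24 for Atp1b2 and 1.55 for Kcnj16.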

How the data were processed

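Immunopanned astrocytes were profiled with Lexogen QuantSeq 3′ mRNA-Seq (FWD) after removal of BC1 transcripts. The deposited values are raw read counts per gene, which the authors made with STAR on GRCm38; the annotation, the strand setting and the handling of duplicate reads are not given in the sources used here. Since reads come from 3′ ends, counts were not divided by transcript length. Of 56805 rows, 114 spike-in rows (at most 86 counts in a library) were left out; 34085 of the 56691 gene rows had no counts. Columns headed Shh were read as SAG from the replicate numbers and labels. Libraries held 17481727 to 68342287 counts. The limit given for a count of 0 covers counting error only, whereas intervals of fold changes include the spread between samples.

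Tests used edgeR 4.0.16 (R 4.3.3; TMM, quasi-likelihood, Benjamini-Hochberg over all genes tested) on the libraries of each comparison, after a filter on low counts (minimum 10 in a library, 15 in total). Genes were called at an adjusted p under 0.05. SE is the log2 fold change divided by the root of F. DESeq2 1.42.0 gave the alternative test. Exact permutation tests were two-sided, doubling the smaller tail. Code was tested on simulated data, with recovery of known changes required only at a spread lower than that fitted to these data. That check does not show how many changes the comparisons here would miss. The methods call the samples biological replicates but do not say whether cultures came from separate litters, so p-values measure the spread between these samples.

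The genes, lists and replicate sets were chosen with earlier results of these data known. Named genes were all 9, the list genes called in a comparison or otherwise those with the highest and lowest log2 fold change at a mean of at least 10 CPM, and the 2 genes most alike to each; some genes that this rule names are not reported here. Alternatives were other size factors, other filters, DESeq2, 1 fit of all 17 libraries, a replicate block, the replicate sets and leaving out each library.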

Additional observations from a re-analysis of the deposited data

Results flagged for a closer look

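Slc12a2 was at 20.3 CPM in PBS replicate 1, against 5.76 to 8.08 CPM in the other 3 PBS samples, a gap of 0.841 of the group's range. It was the only such sample among 16 groups of 4 examined. Chance gives such a sample in about 1 of 20 groups, so 1 among 16 is near what chance gives. FGF2 replicate 1 and FGF10 replicate 1 were also the highest of their groups, at 24.8 and 25.8 CPM.

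Gja1 had fold changes of opposite sign in the replicate sets of FGF2 against PBS: the log2 fold change was 0.201 in replicates 1 and 2, with both FGF2 samples above both PBS samples, and -1.65 in replicates 3 and 4, with both FGF2 samples below both PBS samples. The difference between the sets was not tested.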

How the results depend on the processing

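Of 576 values of the 8 genes under alternatives, 523 kept their direction and side of the threshold, 3 newly passed it (the DESeq2 calls of Slc4a4 and Gja1 given above), 0 lost it and 50 reversed; 55 of 72 counts of called genes stayed within 1.5 times. The causes were not tested. Under SAG the count of 8 called genes was 76 with no filter, 42 with a mean of at least 10 counts, 4 in a fit of all 17 libraries, 398 by DESeq2 and 1 to 7 without each library (1 without DMSO replicate 1, 2 without SAG replicate 2 or 3, 5 without DMSO replicate 2 or 3). In the other comparisons edgeR called 0, also without each library; DESeq2 called 120 for FGF2 against PBS, 104 for FGF10 against PBS, 90 for FGF2 against FGF10 and 193 for PBS against DMSO. With no filter, 2 genes were called for FGF2 against FGF10 and 36 for PBS against DMSO, where a mean of at least 10 counts gave 4 and the fit of all libraries 1.

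Each reversed value had a 95% interval that held 0 in the test reported above. With replicates 1 and 2 only, FGF2 against PBS gave -0.16 for Kcnj16, 0.38 for Aqp4, 0.20 for Gja1, 0.16 for Slc4a4 and 0.079 for Hepacam, FGF10 against PBS gave -0.15 for Gja1 and 0.023 for Hepacam, and FGF2 against FGF10 gave 0.020 for Atp1b2, 0.34 for Gja1 and 0.050 for Hepacam. With the set as a term, Gja1 was -0.038 (FGF10 against PBS) and Hepacam 0.0043 (FGF2 against FGF10). Without each library in turn, the ranges that crossed 0 were, for SAG against DMSO, -0.44 to 0.029 (Aqp4), -0.14 to 0.15 (Atp1b2), -0.036 to 1.49 (Slc12a2) and -0.042 to 0.62 (Hepacam). For FGF2 against PBS they were -0.50 to 0.21 (Aqp4), -0.67 to 0.030 (Gja1), -0.15 to 0.095 (Slc4a4) and -0.20 to 0.86 (Slc12a2), and for FGF10 against PBS -0.074 to 0.19 (Gja1), -0.32 to 0.029 (Slc4a4), -0.11 to 1.07 (Slc12a2) and -0.27 to 0.057 (Hepacam). For FGF2 against FGF10 they were -0.20 to 0.25 (Kcnj10), -0.17 to 0.078 (Atp1b2), -0.087 to 0.27 (Slc4a4), -0.73 to 0.42 (Slc12a2) and -0.16 to 0.17 (Hepacam), and for PBS against DMSO -0.042 to 0.13 (Atp1b2) and -0.85 to 0.49 (Slc12a2).

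With the replicate number as a block, 12 genes were called for SAG against DMSO and 0 in each other comparison; Gja1 was -0.049 for FGF10 against PBS, and Slc12a2 and Hepacam were 0.12 and 0.070 for FGF2 against FGF10. Deviations of samples with the same number correlated over genes at -0.015 to 0.026 for SAG and DMSO, 0.090 to 0.11 for FGF2 and PBS, 0.040 to 0.075 for FGF10 and PBS, 0.065 to 0.13 for FGF2 and FGF10 and -0.016 to 0.0086 for PBS and DMSO, and 3 of 6 and 5 of 8 samples correlated best with their own number (5 of 6 for FGF10 and PBS, 4 of 6 for FGF2 and FGF10, 1 of 6 for PBS and DMSO), and since not every pair was above 0.1 in any comparison, the number was not taken as a pairing; the sets of replicates 1 and 2 and of 3 and 4 are treated above.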
